A study of Mus musculus with 4 samples.

Results

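The nuclear genes for the protein subunits of the respiratory chain and of ATP synthase were followed through 4 single-cell RNA libraries of the mouse P2 digit, the middle segment of the toe. Members were taken by symbol: every gene whose name begins with Ndufa, Ndufb, Ndufc, Ndufs, Ndufv, Uqcr or Atp5, or with Cox4, Cox5, Cox6, Cox7 or Cox8, leaving out the Ndufaf assembly factors and pseudogene symbols. This gave 81 of 32285 genes, of which 36 belong to complex I, 8 to complex III, 20 to complex IV and 17 to complex V. Ndufa4 and Ndufa4l2 carry complex I names and were counted with complex IV, where the Ndufa4 protein is now placed. Cyc1, cytochrome c1 of complex III, is a nuclear subunit that the symbol rule does not take in, and it is given with the other genes of the pathway. At least 1 unique molecular identifier (UMI, a tag that marks 1 captured RNA molecule) was counted for 80 of the 81 in every library, the exception being Cox8c, and 75 reached 20 CPM (UMIs of a gene per 1000000 UMIs) in every library.

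The study followed digits that scar after amputation through the second phalanx. One library came from unamputated digits and 1 each from digits at 12, 17 and 28 days post amputation (dpa). All groups were wild-type FVB/NJ mice, 8 weeks old by the labels, which also say that males and females were pooled; the number of animals is not given in the sources used here. Tissue was dissected by hand, digested with trypsin and collagenase I, cleared of red cells, sorted for cells that exclude propidium iodide, and loaded on the 10x Chromium 3′ v3 platform.

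Oxidative phosphorylation takes electrons from NADH at complex I, passes them through complex III and cytochrome c to oxygen at complex IV, and uses the proton gradient so built to make ATP at complex V. Each of these 4 complexes is a mosaic: a core is encoded by mitochondrial DNA and made inside the organelle, and the larger number of subunits is encoded in the nucleus, made in the cytosol and imported. The nuclear factors NRF1, GABP (an ETS family protein) and YY1 are known to bind many of these genes' promoters, and several complex IV subunits have a second isoform that replaces the common one in particular tissues.

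Each group is 1 library, so no difference between groups could be set against replicate error and none was tested. Intervals below are exact 95% intervals, and the limit given for a count of 0 is 3 counts of the total; both cover counting error only. Values are sums of UMIs over the cells of a class divided by all UMIs of the class, so that less RNA of 1 kind and more of another cannot be told apart. The libraries held 16045, 8813, 10514 and 15253 barcodes in the order unamputated, 12, 17 and 28 dpa, and 34947 cells in all were kept. The median depth of the kept cells was 11600, 9543.5, 8501 and 6657 UMIs in the same order, lower in each later library. Between 19 and 87 cell barcodes were shared by any pair of libraries. The 12 dpa library stood apart: it held 458 CPM of Xist and 0.228 CPM of Y-linked transcripts, whereas the other libraries held 0.0762 to 0.154 CPM of Xist and 244 to 350 CPM of Y-linked transcripts. The 12 dpa library also held more Gm42418, a transcript that overlaps ribosomal RNA, at 3.33% of UMIs against 1.74, 2.34 and 1.74% in the unamputated, 17 and 28 dpa libraries, and its part in the ratios was not tested. Each library carried the transcripts of 1 sex, which goes against the label of pooled sexes. The ratios of 17 and 28 dpa to unamputated compare libraries of the same kind, and the ratio of 12 dpa to unamputated does not.

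Cells were grouped without the 81 members into 28 clusters, and 25 of these were named from marker genes into 17 classes, which are "like" classes throughout (fibroblast-like and so on). The fibroblast-like cells, for example, held 65763, 61630, 64275 and 47671 CPM of 10 fibroblast markers such as Dcn and Col1a1. The tenocyte-like cells held 79897, 64623, 63067 and 62949 CPM of the same 10, so these markers do not set the classes apart; of 8 tenocyte markers such as Tnmd and Scx the fibroblast-like cells held 367, 485, 495 and 431 CPM and the tenocyte-like cells 1754, 1844, 2492 and 4745 CPM. Cluster 0, myeloid cells led by Mmp12, Acp5 and Atp6v0d2, and clusters 17 and 20 stayed unnamed because their leading genes went against the best name. When each cell was named alone from its own markers, 69.9% kept the name of its cluster and 1970 cells (5.64%) lay near the cut between names.

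Among the named classes the largest sums of the 81 members were found in smooth muscle-like and basal keratinocyte-like cells and the smallest in neutrophil-like and B lineage cells. In basal keratinocyte-like cells the members together made up 1.78, 2.09, 2.26 and 2.50% of all UMIs in the unamputated, 12, 17 and 28 dpa libraries. Smooth muscle-like cells, the contractile cells of vessel walls, gave 1.74, 2.37, 2.18 and 2.44%. The means of the 2 classes were thus close, at 2.16 ± 0.300% and 2.18 ± 0.315% (SD, n = 4 libraries of different groups). They were furthest apart at 12 dpa, where smooth muscle-like cells had the higher sum. Suprabasal keratinocyte-like cells followed at 2.07 ± 0.247%, then hair follicle keratinocyte-like cells at 1.92 ± 0.294% and macrophage-like cells at 1.87 ± 0.315%. Pericyte-like (1.79 ± 0.260%), tenocyte-like (1.78 ± 0.284%) and dendritic-like cells (1.66 ± 0.269%) stood in the middle of the order. Fibroblast-like cells gave 1.53 ± 0.345%, vascular endothelial-like cells 1.35 ± 0.206%, Schwann-like cells 1.35 ± 0.176% and T or NK-like cells 1.28 ± 0.239%. The means of neighbours among these 12 classes lay closer together than the SD over libraries. That SD includes the differences between groups, so it does not show that neighbours were alike within a library. The values of smooth muscle-like cells (1.74 to 2.44%) and T or NK-like cells (1.00 to 1.58%) did not overlap. B lineage cells stood lower, at 0.966 ± 0.126% (SD, n = 3 libraries), and neutrophil-like cells lower again, at 0.727% in the unamputated and 0.772% in the 17 dpa library, the only 2 with at least 50 such cells. The neutrophil-like class was led by Camp, Ngp and Ltf, genes of neutrophil granules.

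Of the unnamed clusters, 0 and 17 lay towards the 2 ends of the order and cluster 20 between them, at 1.12, 1.57, 1.43 and 1.60%. Cluster 0, the Mmp12 and Acp5 myeloid cells, gave 1.996, 2.59, 2.39 and 2.39%, higher than the macrophage-like cells of the same library in each case. Acp5 and Atp6v0d2 are genes of osteoclasts, while the best class of cluster 0 by its markers was macrophage. Its mitochondrially encoded sum was 3.82, 2.82, 2.67 and 3.06%, against 4.31, 3.16, 2.64 and 3.46% in macrophage cluster 1. The cause of its high nuclear sum was not tested. Cluster 17, with a median of 1974 UMIs per cell, gave only 0.474 to 0.758%. Across the classes of 1 library, Spearman's rho between the nuclear sum and the median depth was 0.49, 0.54, 0.69 and 0.60 over 17, 13, 16 and 14 classes. With the summed genes of the tricarboxylic acid cycle it was 0.81, 0.75, 0.82 and 0.85, with the 13 protein genes of mitochondrial DNA 0.71, 0.46, 0.56 and 0.53, and with ribosomal protein genes 0.43, 0.38, 0.17 and 0.00. These are descriptions over classes that share a library and a total.

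**Figure D1:**
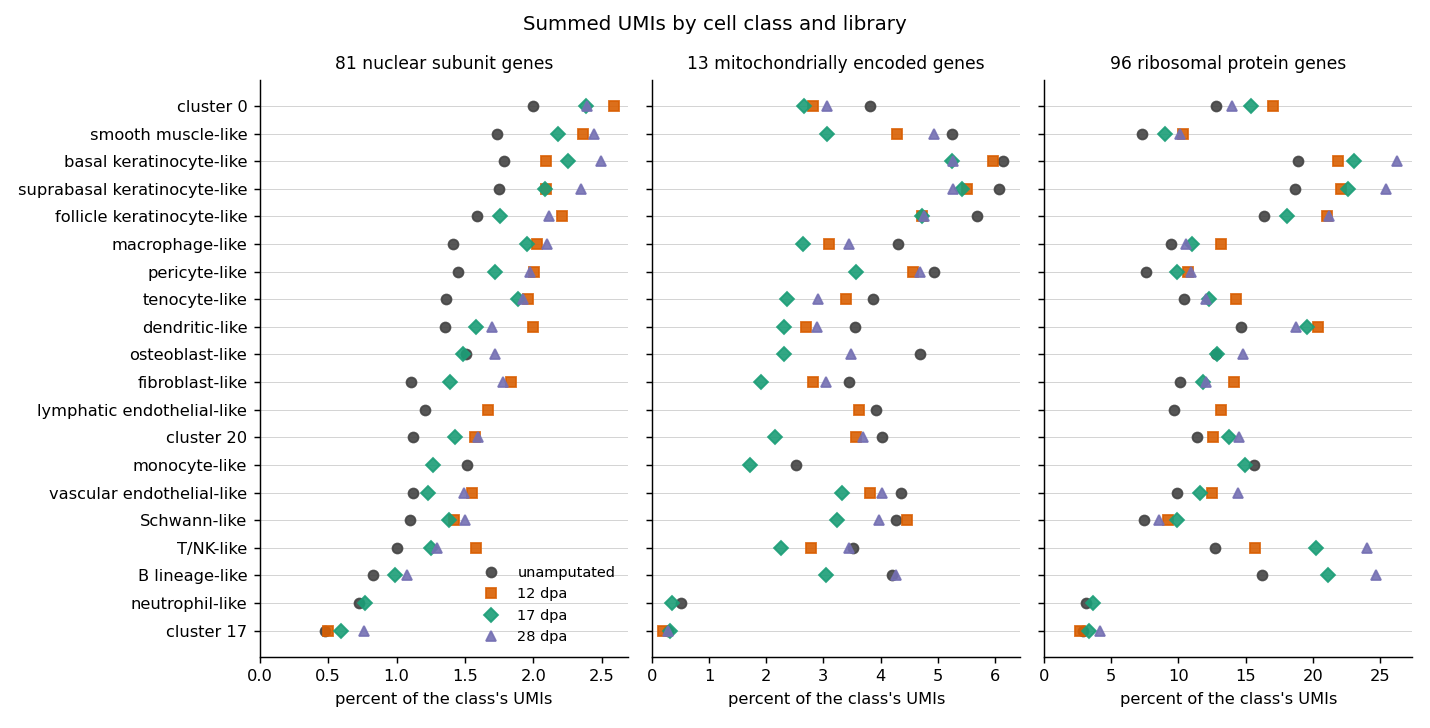
Summed UMIs of the 81 nuclear subunit genes, the 13 mitochondrially encoded protein genes and the 96 cytosolic ribosomal protein genes, as a percentage of all UMIs of each class (17 named classes and clusters 0, 17 and 20), 1 point per library with at least 50 cells. The nuclear sum ran from 0.727% in neutrophil-like cells of the unamputated library to 2.50% in basal keratinocyte-like cells at 28 dpa among named classes.

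Single members differed between classes to very unequal extents. Over 76 members that reached 50 CPM in some class, the log2 ratio of the highest to the lowest class ran from 0.66 to 8.91 with a median of 1.97. The highest class was smooth muscle-like for 22 members, basal keratinocyte-like for 18, suprabasal keratinocyte-like for 12 and macrophage-like for 7. The lowest class was neutrophil-like for 47 of the 76 and B lineage for 20. A 3′ count depends on how well each transcript's end is captured, so levels of different genes are not ranked. A share within an isoform family, or a ratio of mitochondrial to nuclear UMIs, is one of UMIs and not of transcripts, to be compared between classes and libraries.

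In complex I the widest spans belonged to Ndufa5 and Ndufs3. Ndufa5, an accessory subunit of the arm that extends into the matrix, gave 145, 194, 216 and 258 CPM in smooth muscle-like cells of the unamputated, 12, 17 and 28 dpa libraries. Its mean over libraries was 203 CPM there, 201 CPM in basal keratinocyte-like cells and 26.4 CPM in neutrophil-like cells, a log2 span of 2.90. Ndufs3, a core subunit of the same arm, ran from a mean of 14.97 CPM in neutrophil-like to 104 CPM in smooth muscle-like cells (log2 span 2.72).

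In complex III the widest spans belonged to Uqcr11, a small accessory subunit, and Uqcrc1, a core protein that faces the matrix. Uqcr11 gave 426, 580, 518 and 581 CPM in suprabasal keratinocyte-like cells and a mean of 60.3 CPM in neutrophil-like cells (log2 span 3.11). Uqcrc1 was highest in the epidermis: it gave 250.3, 277, 232 and 255 CPM in basal keratinocyte-like cells, against a mean of 172 CPM in suprabasal, 73.1 CPM in fibroblast-like and 32.3 CPM in neutrophil-like cells. The 4 basal values lay above each of the fibroblast-like values, 59.0, 103, 51.5 and 78.5 CPM.

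In complex V the leading pair encode the same product. Atp5g1, Atp5g2 and Atp5g3 each encode the subunit that forms the membrane ring of ATP synthase, and the mature proteins are known to be identical. Atp5g1 gave 324, 459, 462 and 526 CPM in basal keratinocyte-like cells and a mean of 59.5 CPM in neutrophil-like cells. Atp5g2 had means of 501 CPM in basal, 404 CPM in suprabasal and 84.5 CPM in neutrophil-like cells. Of the UMIs of the 3 genes together, Atp5g1 took 19.8 to 43.7%, Atp5g2 34.2 to 60.3% and Atp5g3 13.7 to 32.1% over all named classes and libraries, so no class used 1 of the 3 alone.

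**Figure D2:**
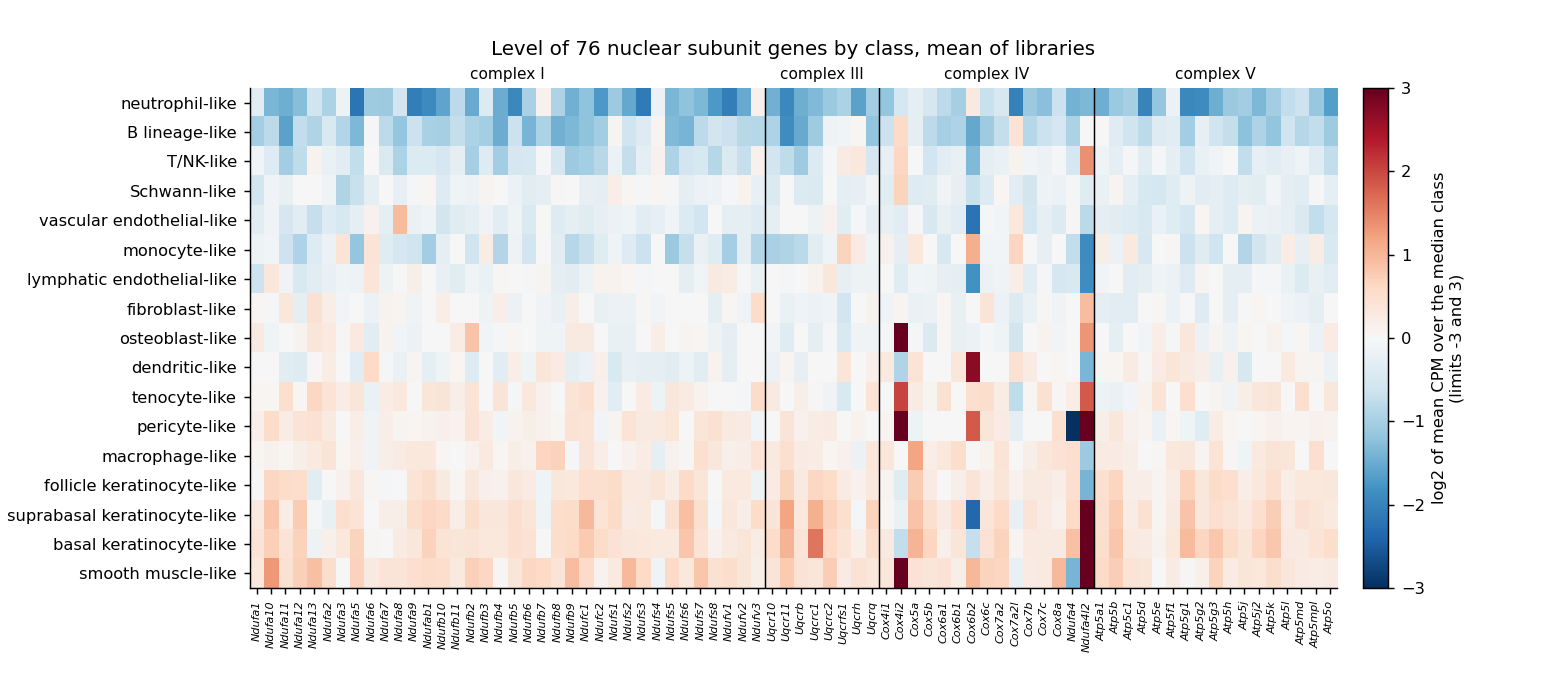
Mean CPM of 76 members (columns, grouped by complex) in 17 named classes (rows), as the log2 ratio to the member's median class, shown between -3 and 3. The neutrophil-like and B lineage rows are low for most members. Ndufa4l2 and Cox4i2 stand out in the pericyte-like and smooth muscle-like rows, with Ndufa4 low in the pericyte-like one.

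The sharpest differences between cell classes were in the isoform pairs of complex IV. Ndufa4l2 (chr10:127514967-127517154, plus strand, mm10, protein coding) is a paralog of Ndufa4 (chr6:11900292-11907497, minus strand) and a known target of hypoxia-inducible factor. In pericyte-like cells, which wrap capillaries, Ndufa4l2 gave 558, 716, 582 and 704 CPM and Ndufa4 gave 14.7, 29.0, 23.8 and 33.3 CPM. The share of Ndufa4l2 in the pair was therefore 97.4% (97.0 to 97.8), 96.1, 96.1 and 95.5% in the unamputated, 12, 17 and 28 dpa libraries. Nearly all of the pair's UMIs in these cells came from the paralog in every library. Smooth muscle-like cells held 537, 733, 527 and 527 CPM of Ndufa4l2, lower than pericyte-like cells in 3 of the 4 libraries, with more Ndufa4 (79.8, 95.8, 135 and 176 CPM), and the share was 87.1, 88.4, 79.6 and 75.0%. In fibroblast-like cells most of the pair's UMIs were of Ndufa4, with 235, 381, 270.2 and 392 CPM of Ndufa4 and 6.22, 12.4, 7.30 and 7.61 CPM of Ndufa4l2. Ndufa4 had its lowest mean in pericyte-like cells (25.2 ± 8.02 CPM, SD, n = 4 libraries) and its highest in basal keratinocyte-like cells (590 ± 97.1 CPM). The values of these 2 classes did not overlap, and the median class had 320 CPM.

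After each cell was thinned to 2000 UMIs, 54.9, 54.4, 55.7 and 59.8% of pericyte-like cells held a UMI of Ndufa4l2, with 19 to 71 shallower cells left out per library. In vascular endothelial-like cells, which lie beside pericytes and should show the level of free RNA, the thinned share was 0.145% in the unamputated library, 0 of 737 cells at 12 dpa (which allows up to 0.407%), 0.398% at 17 dpa and 0.945% at 28 dpa. Without thinning the pericyte-like share was 83.6, 72.1, 74.1 and 72.2% at median depths of 9530.5 to 4012 UMIs, and the endothelial-like share 0.397 to 2.07% at 10834 to 4312.5 UMIs. The Ndufa4l2 signal of pericyte-like cells was far above that background in each library.

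Keratinocytes held Ndufa4l2 as well, beside much Ndufa4. Its share of the pair was 15.2, 13.8, 29.3 and 25.02% in suprabasal and 8.53, 5.27, 12.1 and 10.9% in basal keratinocyte-like cells. The suprabasal level was 78.4 and 78.2 CPM in the unamputated and 12 dpa libraries and 196 and 183 CPM at 17 and 28 dpa, so the 2 later libraries stood above the other 2. In basal cells the levels were 45.7, 30.6, 82.5 and 88.0 CPM, again higher in the later pair. In macrophage-like cells the share stayed at 0.20 to 0.39%. A share of 10.7% in tenocyte-like cells at 28 dpa, against 1.81 to 2.45% before, rested on 41 of 360 cells with a UMI, and 46 of the 164 UMIs were in 1 cell. A share of 15.4% in T or NK-like cells at 17 dpa rested on 18 UMIs in 2 of 113 cells.

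Cox4i2 (chr2:152754173-152765037, plus strand) is the isoform of the largest nuclear subunit of complex IV that is known from lung and from oxygen-sensing cells; Cox4i1 (chr8:120668222-120674207, plus strand) is the common one. Pericyte-like cells held 324, 402, 199.98 and 240.1 CPM of Cox4i2 in the unamputated, 12, 17 and 28 dpa libraries, beside 630, 922, 899 and 1000.1 CPM of Cox4i1. The share of Cox4i2 was 34.0, 30.4, 18.2 and 19.4%, lower in the 2 later libraries than in the other 2. Smooth muscle-like cells gave 186, 275, 164 and 188 CPM of Cox4i2 beside 748, 1102, 1052 and 1190.4 CPM of Cox4i1, and shares of 19.96, 19.99, 13.5 and 13.6%. The share was lower at 28 dpa than unamputated in both classes, but the Cox4i2 level itself was lower in pericyte-like cells and not in smooth muscle-like cells. In the other 15 named classes no share exceeded 4.77%, a value from osteoblast-like cells of the unamputated library (30.1 CPM). Vascular endothelial-like cells held 0 to 1.33 CPM. Thinned to 2000 UMIs, 36.4, 39.1, 24.9 and 30.6% of pericyte-like cells held Cox4i2, against 0.0727, 0.136, 0 and 0.189% of vascular endothelial-like cells; the 0 was of 502 cells and allows up to 0.598%. Over both mural classes together the mean shares were 22.9% for Cox4i2 and 91.6% for Ndufa4l2.

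Summed pericyte markers moved as well: they were 20340, 14040, 18321 and 15625 CPM in pericyte-like cells and 13432, 10653, 10241 and 7561 CPM in smooth muscle-like cells, while smooth muscle markers were 17896, 17254, 19466 and 21402 CPM in the latter. The part of these markers in the Cox4i2 and Ndufa4l2 shares was not tested.

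**Figure D3:**
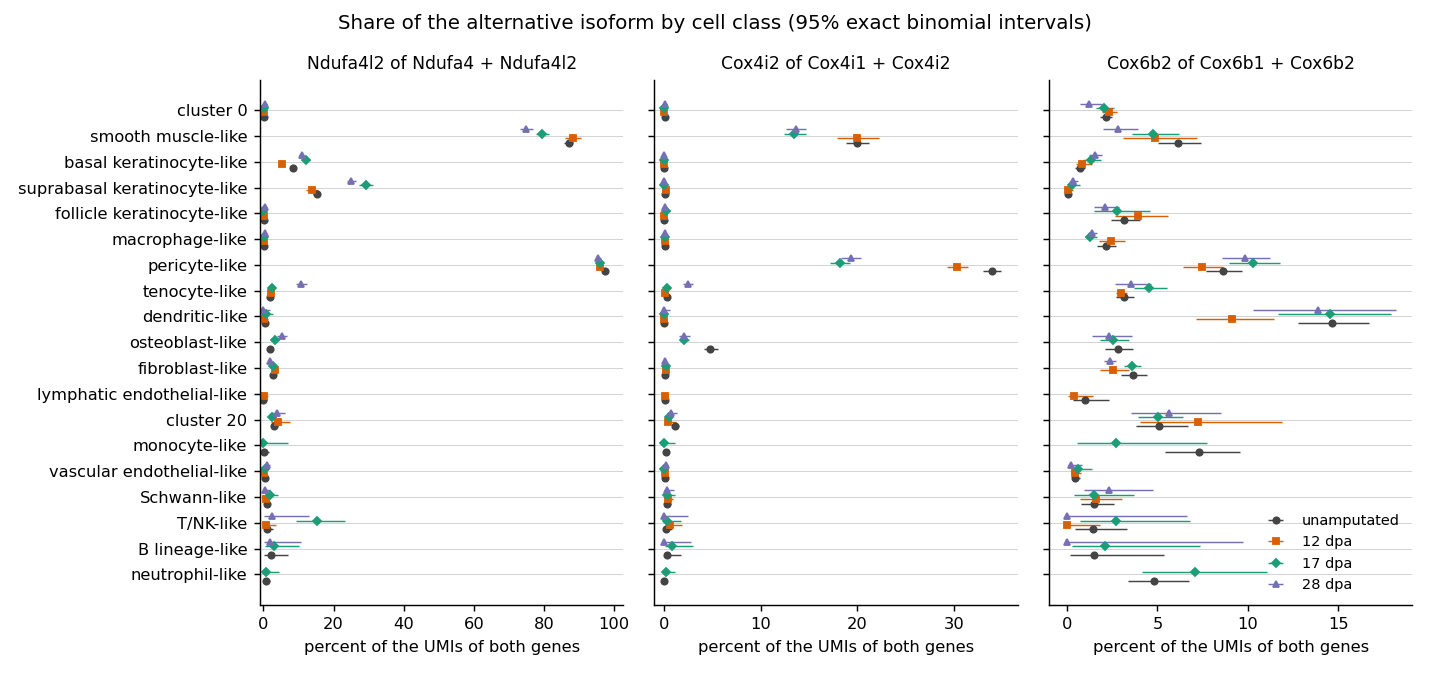
Share of Ndufa4l2 in the UMIs of Ndufa4 and Ndufa4l2, of Cox4i2 in those of Cox4i1 and Cox4i2, and of Cox6b2 in those of Cox6b1 and Cox6b2, in percent, by class and library with exact 95% intervals. Ndufa4l2 is near 96% in pericyte-like cells, Cox4i2 peaks there at 34.0%, and Cox6b2 is highest in dendritic-like cells at up to 14.6%.

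Cox6b2 (chr7:4751792-4753094, minus strand), the isoform of a subunit on the outer face of complex IV that is known from testis, had its highest shares in dendritic-like and pericyte-like cells. Dendritic-like cells held 56.6, 56.7, 70.7 and 74.5 CPM, and its share beside Cox6b1 was 14.6% (12.8 to 16.7), 9.09, 14.6 and 13.9%. Pericyte-like cells held 25.1, 33.9, 38.4 and 42.2 CPM, a share of 8.62, 7.45, 10.3 and 9.82%. Neutrophil-like (4.83 and 7.05%), monocyte-like (7.29 and 2.73%), smooth muscle-like (2.82 to 6.12%) and tenocyte-like cells (2.999 to 4.53%) and the unnamed cluster 20 (5.05 to 7.25%) lay between. Macrophage-like cells lay at 1.29 to 2.41% and suprabasal keratinocyte-like cells at 0.0508 to 0.348%. The promoters of the pair are shown because the common gene carries an ETS motif and the restricted one carries none of the motifs searched. They run from 250 bases before to 50 bases after the RefSeq start on GRCm38.p6, 5′ to 3′ on the gene's strand, with motif letters in capitals; Cox6b1 lies at chr7:30626065-30626364 and Cox6b2 at chr7:4753045-4753344, both on the minus strand.
Cox6b1: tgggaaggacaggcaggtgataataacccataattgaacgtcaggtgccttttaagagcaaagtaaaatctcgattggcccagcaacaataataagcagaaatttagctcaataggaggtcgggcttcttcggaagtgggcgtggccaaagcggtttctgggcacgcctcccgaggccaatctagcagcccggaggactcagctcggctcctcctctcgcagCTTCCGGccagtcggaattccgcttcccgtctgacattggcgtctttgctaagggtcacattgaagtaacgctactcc
Cox6b2: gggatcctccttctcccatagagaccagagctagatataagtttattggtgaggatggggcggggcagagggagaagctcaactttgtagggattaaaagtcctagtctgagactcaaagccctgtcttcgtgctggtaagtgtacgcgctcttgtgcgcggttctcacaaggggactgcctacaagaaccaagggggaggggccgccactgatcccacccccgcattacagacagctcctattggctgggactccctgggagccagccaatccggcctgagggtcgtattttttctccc
The capitals in Cox6b1 are the ETS letters read on the other strand. That Cox6b2 has no match says only that the letters searched are not in this window.

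Cox6a2 (chr7:128205435-128206387, minus strand), the isoform of heart and skeletal muscle, marked a small set of cells within the dendritic-like class. It gave 21.8, 0.86, 35.4 and 25.4 CPM there, from 73, 1, 38 and 15 UMIs. Its share beside Cox6a1 was 12.4% (9.83 to 15.3), 0.39% (0.01 to 2.17), 19.2% (13.95 to 25.4) and 10.6% (6.03 to 16.8), so the 12 dpa library was the low one. Only 21 of the 641 dendritic-like cells held 2 or more UMIs, but these cells held 122 of the 127 UMIs. They were 10 of 288, 0 of 138, 7 of 126 and 4 of 89 cells by library. Siglech, a surface lectin of plasmacytoid dendritic cells, was found in 21 of the 21 and in 81 of the 615 cells without Cox6a2 (13.2%). Ccr9 was in 19 against 41 (6.67%), Ly6d in 20 against 67 (10.9%), and Klk1 in 13 against 3 (0.488%). Bst2, a further plasmacytoid marker, was in all 21 and in 236 (38.4%) of the rest. Of the markers used to name the dendritic-like class, Cd209a was in 11 against 286 (46.5%) and Flt3 in 14 against 383 (62.3%). Xcr1, Clec9a, Ccr7 and Cd207 were in 0, 1, 3 and 0 of the 21, against 60, 68, 117 and 56 of the rest. Cox6b2 was in 0 of the 21, which allows a share of up to 14.3%, and in 221 (35.9%) of the rest. The Cox6a2 cells were the shallower ones, with a median of 7021 against 9215 UMIs. These cells and partner genes were chosen after the values were seen.

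The other muscle and testis isoforms were scarce. Cox7a1, the heart and skeletal muscle isoform, made up 3.61, 2.54, 4.41 and 3.97% of its pair with Cox7a2 in macrophage-like cells (9.95, 9.90, 18.2 and 18.8 CPM), 2.03 to 4.15% in Schwann-like cells and 1.97 to 2.57% in pericyte-like cells. Cox7b2, Cox8b and Cox8c did not exceed 0.725, 0.341 and 0.0361% of their families in any named class or library.

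Against unamputated digits, the summed members were higher at 12, 17 and 28 dpa in each of the 12 classes with at least 50 cells in every library. The log2 ratio of the sum had a median of 0.47 at 12 dpa (range 0.23 to 0.74), 0.33 at 17 dpa (range 0.13 to 0.47) and 0.45 at 28 dpa (range 0.33 to 0.69). Over single clusters the sum was higher in 19 of 19, 22 of 24 and 22 of 22. The 2 exceptions, both at 17 dpa, were whole classes that lacked 50 cells in some library: monocyte-like cells (log2 -0.26, 170 and 65 cells) and osteoblast-like cells (-0.02, 245 and 385 cells). In monocyte-like cells 20 of 74 tested members were past 1.5-fold downwards and 0 upwards, where 17.7% of all genes were past it downwards. The 13 protein genes of mitochondrial DNA went the other way: their sum was lower in 11, 12 and 12 of the 12 classes. The exception was Schwann-like cells at 12 dpa (log2 0.07), and in T or NK-like cells at 28 dpa (-0.03) the interval included 0. Over single clusters the mitochondrially encoded sum was lower in 18 of 19, 23 of 24 and 20 of 22. Cytosolic ribosomal protein genes were higher in 12 of 12 classes at each time, with log2 ratios of 0.21 to 0.51, 0.14 to 0.67 and 0.16 to 0.92, and depth was lower. The unamputated library is the common term of all these ratios, so they are not independent of each other.

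Gene length moved with these ratios. The members are short, with a median genomic span of 7.18 kb (0.953 to 105) against 12.3 kb for all annotated genes. That second median is over 32158 genes and not over the genes tested. In fibroblast-like cells at 12 dpa, 1164 tested genes outside the members and ribosomal genes were under 10 kb and 2498 at least 50 kb. In each of the 12 classes and at each time the log2 ratio was lower for longer genes, over all genes (Spearman's rho between -0.66 and -0.27, -0.57 and -0.19, and -0.66 and -0.42 at the 3 times) and over the members (between -0.53 and -0.18, -0.32 and -0.06, and -0.33 and -0.11). Whether reads in introns were counted is not given in the sources used here, and the part of length in the members' ratios was not tested. Among genes under 10 kb that are neither members nor ribosomal, 1164 in fibroblast-like cells had a median log2 ratio of 0.37 at 12 dpa, where the 52 members under 10 kb had 0.78. At 28 dpa the medians were 0.36 over 1164 other short genes and 0.73 over the 52 members, and at 17 dpa 0.16 over 1130 and 0.38. The median of the short members was above that of the other short genes in 12 of 12 classes at each time. This comparison by length was added after the ratios were seen.

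**Figure D4:**
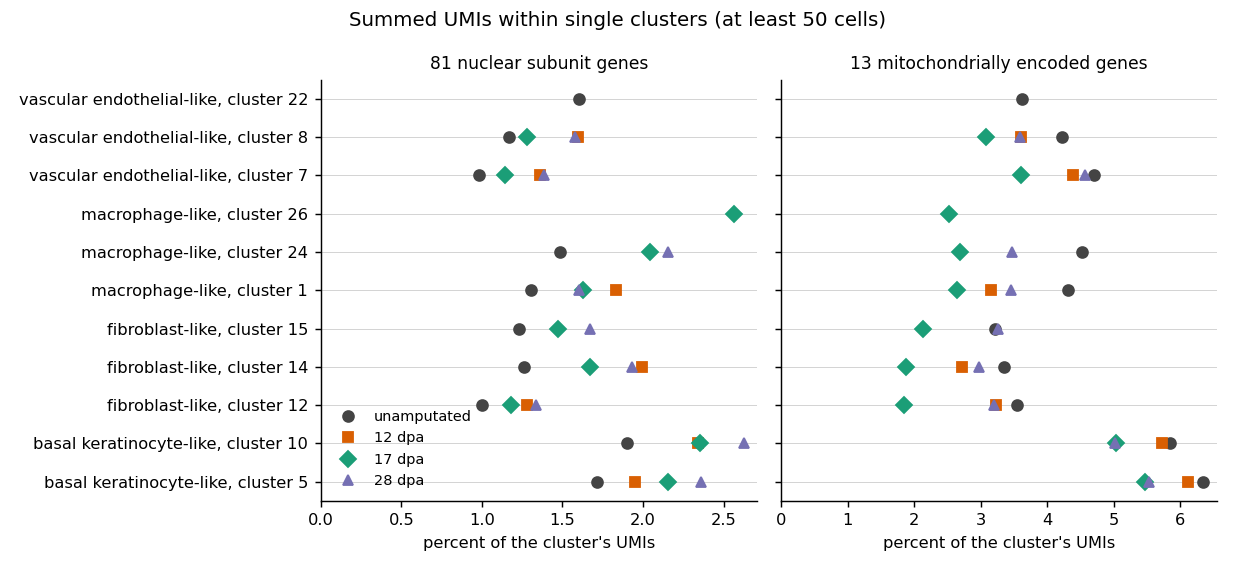
Nuclear and mitochondrially encoded sums, in percent of UMIs, within single clusters of the fibroblast-like, macrophage-like, basal keratinocyte-like and vascular endothelial-like classes, by library (clusters with at least 50 cells). Within fibroblast clusters 12 and 14 the nuclear sum was lowest in the unamputated library and the clusters kept their order.

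Fibroblast-like cells had the largest ratios of the 12 classes at 12 and 28 dpa. The nuclear sum was 1.10, 1.84, 1.39 and 1.78% of UMIs in the unamputated, 12, 17 and 28 dpa libraries, from 715, 335, 1828 and 2446 cells. The 12 dpa library had a log2 ratio of 0.74 (0.72 to 0.75), the 17 dpa library 0.33 (0.32 to 0.34) and the 28 dpa library 0.69 (0.68 to 0.69), or 1.67, 1.26 and 1.61-fold. The 17 dpa library thus lay between unamputated and the other 2. The mitochondrially encoded sum was 3.45, 2.82, 1.91 and 3.05%, so its ratio to the nuclear sum was 3.12, 1.53, 1.37 and 1.72. Median depth in this class was 18042, 12325, 11668.5 and 8687.5 UMIs. Among cells of 10000 to 20000 UMIs the nuclear sum was 1.08, 1.96, 1.42 and 1.89%, again lowest in the unamputated library. Markers of other classes moved with the sum here too. The 8 smooth muscle markers were at 0.454, 0.691, 0.487 and 0.66% of their level in smooth muscle-like cells, ordered as the sum (81.2, 119, 94.7 and 141 CPM, an order that differs from it at 28 dpa). The 7 pericyte markers ran in the reverse order, 2947, 1760, 2006 and 1766 CPM, and the 8 suprabasal keratinocyte markers were higher in each later library, 191, 268, 283 and 670 CPM. Each marker of these 3 lists had UMIs in every library, and their part in the result was not tested.

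Single clusters differed in level and in ratio. Fibroblast cluster 12, led by Lsamp, Hpse2 and Gdf10, gave 1.00, 1.28, 1.18 and 1.33% from 433, 70, 922 and 719 cells. Cluster 14, led by Ccn3, Clec3b and Mfap5, gave 1.26, 1.99, 1.67 and 1.93% from 172, 234, 486 and 1417 cells. Cluster 15, led by Fgl2 and Itih5, gave 1.23% unamputated, 1.47% at 17 dpa and 1.67% at 28 dpa. Cluster 14, the one with more, made up 172 of 715 cells in the unamputated and 234 of 335 cells in the 12 dpa library, and the part of this change of clusters in the class ratio was not tested. Within cluster 12 the log2 ratios were 0.36, 0.24 and 0.42, and within cluster 14 they were 0.66, 0.41 and 0.62.

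Of the 81 members, 73 reached the minimum of 20 CPM in fibroblast-like cells; the 8 that did not are Ndufa4l2, Cox4i2, Cox6a2, Cox6b2, Cox7a1, Cox7b2, Cox8b and Cox8c. At 12 dpa 72 of the 73 were higher than in the unamputated library and 55 were past 1.5-fold, where 36.2% of all genes tested were higher and 9.21% were past that fold upwards. At 17 dpa 67 were higher and 1 was past 1.5-fold (43.4 and 1.68% of all genes). At 28 dpa 72 were higher and 52 were past 1.5-fold (41 and 9.43% of all genes). No member was past 1.5-fold downwards at any time, as 22.5, 3.14 and 17.2% of all genes were. The median member had a log2 ratio of 0.75, 0.34 and 0.72, where all genes had -0.22, -0.04 and -0.12. Of other genes under 10 kb, 29.0, 3.81 and 27.7% were past 1.5-fold upwards, against 45, 1 and 42 of the 52 members under 10 kb. The 12 and 28 dpa comparisons share the unamputated library, and 46 members were past 1.5-fold in both, 83.6% of the 55 and 88.5% of the 52. Within cluster 12 alone the counts past 1.5-fold were 9, 2 and 16 at the 3 times, where 6.19, 1.97 and 6.04% of all genes were past it upwards in the same cells. Within cluster 15 alone the 28 dpa count was 18 (6.13% of all genes). The count of 1 at 17 dpa was 14 within cluster 14 alone (3.73% of all genes) and 18 in cells of 5000 to 15000 UMIs (4.88%).

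Members of each of the 4 complexes were past 1.5-fold at 12 and 28 dpa, in unequal shares that were not tested against each other. In complex I 35 of 36 tested members were higher at 12 dpa (26 past 1.5-fold, median log2 0.78) and 35 of 36 at 28 dpa (29, median 0.77). In complex III 8 of 8 were higher at both times (6 and 4 past 1.5-fold, medians 0.75 and 0.61). In complex IV 12 of 12 were higher (11 and 10, medians 0.74 and 0.69), and in complex V 17 of 17 (12 and 9, medians 0.72 and 0.60). At 17 dpa the medians were 0.39, 0.28, 0.33 and 0.31 for complexes I, III, IV and V, and the only member past 1.5-fold belonged to complex I.

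**Figure D5:**
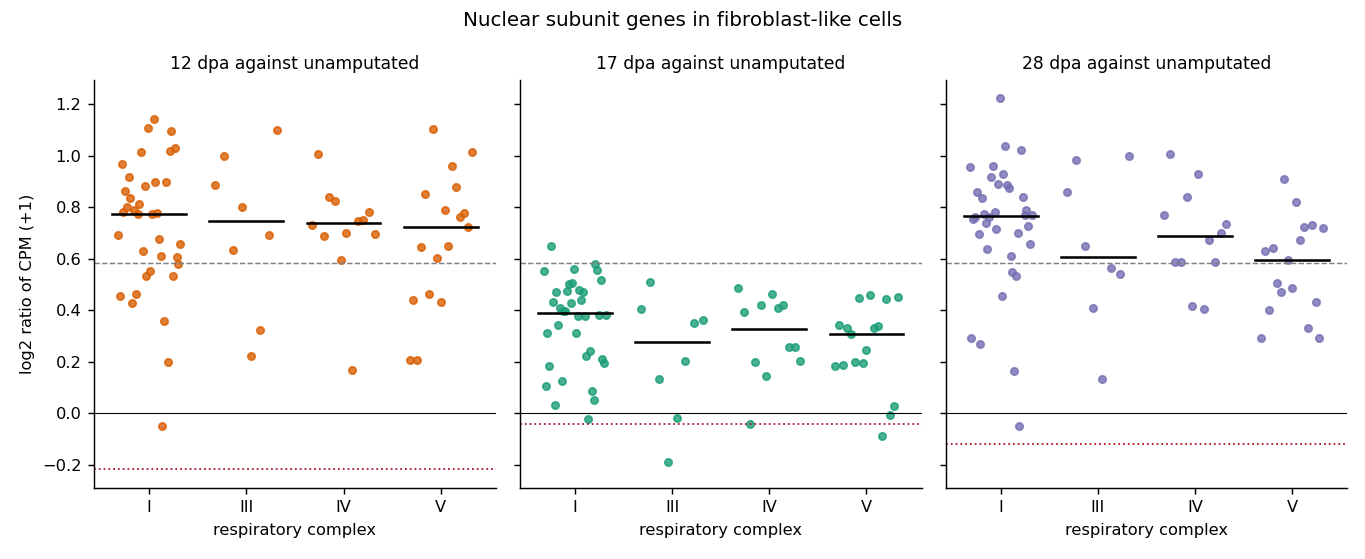
Log2 ratio of CPM to unamputated in fibroblast-like cells for the 73 tested members by complex at 12, 17 and 28 dpa (dots), with the median of each complex (black bar), 1.5-fold (dashed grey) and the median of all genes tested (red dotted). At 12 and 28 dpa most dots lie above 1.5-fold, at 17 dpa 1 does.

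Ndufb4, Ndufb7, Ndufs5, Atp5g1 and Ndufa13 were the members with the highest ratios by the rule for naming. Ndufb4 (chr16:37647170-37654453, minus strand), an accessory subunit of the membrane arm of complex I, gave 113, 244, 166 and 264 CPM in the unamputated, 12, 17 and 28 dpa libraries, log2 ratios of 1.11, 0.56 and 1.22. Ndufb7 (chr8:83566671-83571626, plus strand), on the intermembrane face of the same arm, gave 87.9, 195, 123 and 181 CPM, with log2 ratios of 1.14 at 12 dpa and 1.04 at 28 dpa. Both were more than 2-fold higher at 12 and 28 dpa. Ndufs5 (chr4:123712710-123718202, minus strand), a further subunit of the membrane arm, gave 106, 216, 159 and 216 CPM (log2 1.02 at 28 dpa). Atp5g1 gave 143, 308, 195 and 269 CPM (log2 1.10 at 12 dpa). Ndufa13, an accessory subunit also known as GRIM-19, gave 205, 374, 322 and 373 CPM and was the single member past 1.5-fold at 17 dpa, with a log2 ratio of 0.65.

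The members with the lowest ratios differed in role and included core subunits. Ndufs4 (chr13:114287795-114388258, minus strand), an accessory subunit of the NADH-oxidising end whose loss causes a known mitochondrial disease, spans 100.5 kb, the longest of the tested members. It gave 94.9, 109, 98.4 and 91.7 CPM, with log2 ratios of 0.20 at 12 dpa and -0.05 at 28 dpa. The values of its 4 libraries were close together. Atp5c1, the central stalk subunit of ATP synthase (24.5 kb), gave 178, 206, 203 and 236 CPM, and Uqcrc2, the second core protein of complex III (24.3 kb), gave 61.7, 72.1, 61.0 and 67.7 CPM. Cox7a2l, a factor that joins complexes III and IV into supercomplexes, gave 164, 185, 218 and 218 CPM (log2 0.17 at 12 dpa). Uqcrc1 was lower than unamputated at 17 dpa (59.0 against 51.5 CPM, log2 -0.19, -0.33 to -0.06) while it was higher at 12 dpa (103 CPM) and 28 dpa (78.5 CPM). Within cluster 14 alone the 17 dpa ratio of Uqcrc1 was 0.027, on the other side of 0. The sign also turned for Atp5c1 at 12 dpa within cluster 12 (-0.13), Uqcrc2 at 28 dpa within cluster 12 (-0.10) and Cox7a2l at 12 dpa with a looser cell filter (-0.0019). Atp5k, a subunit at the dimer interface of ATP synthase, gave 120.3, 222, 113 and 152 CPM, and Cox5b gave 140, 226, 136 and 210.5 CPM, so these were also at about the unamputated level at 17 dpa. Ndufa3, an accessory subunit of complex I, gave 49.9, 95.3, 51.0 and 60.3 CPM, with log2 ratios of 0.92, 0.03 and 0.27 (0.14 to 0.41 at 28 dpa), the last of which was -0.23 within cluster 15.

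Promoters of 4 of these genes are shown because their fibroblast ratios were at the ends of the range: Ndufb4, Ndufs5 and Ndufb7 among the highest and Ndufs4 among the lowest. The RefSeq table (GRCm38.p6) held the promoter of 65 of the 81 members. Letters searched on both strands were NRF1 (GCGCNTGCG), an ETS core (CCGGAAG), YY1 (AAGATGGCG) and the hypoxia response element (ACGTGC); matches of the first 3 did not overlap in any member's window. Each line below is 5′ to 3′ on the gene's strand with motif letters in capitals. Ndufb4 lies at chr16:37654319-37654618 (minus strand, 3 NRF1 matches), Ndufs5 at chr4:123718137-123718436 (minus, NRF1), Ndufb7 at chr8:83566508-83566807 (plus, ETS) and Ndufs4 at chr13:114388045-114388344 (minus, YY1).
Ndufb4: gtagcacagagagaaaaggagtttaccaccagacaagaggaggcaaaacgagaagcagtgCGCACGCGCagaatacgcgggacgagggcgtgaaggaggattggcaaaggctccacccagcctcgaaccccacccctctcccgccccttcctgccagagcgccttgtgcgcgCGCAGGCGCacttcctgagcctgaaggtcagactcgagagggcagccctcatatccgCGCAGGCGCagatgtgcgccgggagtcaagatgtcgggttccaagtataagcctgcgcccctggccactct
Ndufs5: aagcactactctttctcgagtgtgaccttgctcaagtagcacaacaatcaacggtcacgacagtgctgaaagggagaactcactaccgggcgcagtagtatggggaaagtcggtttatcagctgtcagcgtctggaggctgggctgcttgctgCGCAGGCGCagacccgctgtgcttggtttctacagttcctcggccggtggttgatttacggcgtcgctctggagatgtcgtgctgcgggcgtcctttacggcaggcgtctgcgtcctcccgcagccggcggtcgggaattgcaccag
Ndufb7: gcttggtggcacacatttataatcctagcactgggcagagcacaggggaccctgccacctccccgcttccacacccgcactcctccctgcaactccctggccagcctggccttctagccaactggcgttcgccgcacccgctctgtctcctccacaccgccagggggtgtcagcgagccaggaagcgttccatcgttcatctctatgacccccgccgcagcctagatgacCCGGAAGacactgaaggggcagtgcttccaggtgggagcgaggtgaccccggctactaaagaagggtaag
Ndufs4: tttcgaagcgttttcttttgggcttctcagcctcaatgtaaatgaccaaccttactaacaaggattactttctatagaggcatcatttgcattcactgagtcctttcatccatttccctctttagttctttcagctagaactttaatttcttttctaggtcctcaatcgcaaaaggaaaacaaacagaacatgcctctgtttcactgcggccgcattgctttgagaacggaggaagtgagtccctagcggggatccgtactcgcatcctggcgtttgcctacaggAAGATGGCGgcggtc
The NRF1 letters were found in 20 of the 65 promoters (30.8%), against 6.59% of all 27025 promoters of the same length. The ETS core was in 14 (21.5% against 9.12%) and YY1 in 6 (9.23% against 1.49%). At least 1 of these 3 was in 33 (50.8% against 15.5%), while the hypoxia element was in 4 (6.15% against 5.92%). The members' promoters were richer in G and C, with a median of 57.0% against 52.7%. Genes with a high ratio and the low Ndufs4 both carried such letters. A match is a description of the window, not a site of binding.

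Macrophage-like cells, the phagocytes of the tissue, gave a nuclear sum of 1.41, 2.03, 1.95 and 2.10% of UMIs, with log2 ratios of 0.52, 0.47 and 0.58 at 12, 17 and 28 dpa. Of 73 tested members 71, 72 and 69 were higher and 26, 22 and 40 were past 1.5-fold, where 31.9, 49.3 and 44.6% of all genes were higher and 3.9, 5.81 and 8.9% were past that fold upwards. Ndufb10, a membrane arm subunit (chr17:24722060-24724478, minus strand), led with 92.8, 175, 167 and 194 CPM. Ndufs4 was again at the other end, with 91.1, 89.9, 83.5 and 71.7 CPM and a log2 ratio of -0.34 (-0.48 to -0.20) at 28 dpa. The class changed clusters between libraries: cluster 24, led by F13a1, Lyve1 and Pf4, held 50, 24, 439 and 1482 cells. Within cluster 1, led by Apoe, Ms4a7 and C1qb, the nuclear sum was 1.30, 1.83, 1.63 and 1.60%, so the unamputated value was the lowest there too. Within cluster 24 it was 1.48% unamputated, 2.04% at 17 dpa and 2.15% at 28 dpa. Cluster 26, whose leading genes Mki67 and Top2a are those of dividing cells, gave 2.57% from 67 cells at 17 dpa, the one library in which it had at least 50. All 10 fibroblast markers had UMIs in the macrophage-like cells of every library, and their sum was higher after amputation too, 240.3, 728, 455 and 655 CPM, or 0.365, 1.18, 0.708 and 1.37% of the level in fibroblast-like cells; their part in the result was not tested.

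Basal keratinocyte-like cells, the dividing layer of the epidermis, had the higher sum in each later library, 1.78, 2.09, 2.26 and 2.50% of UMIs. Of 74 tested members 64, 68 and 71 were higher than unamputated and 1, 7 and 26 were past 1.5-fold; of all genes, 33, 30.6 and 30.5% were higher and 2.36, 2.06 and 5.33% were past that fold upwards. The median member had log2 ratios of 0.22, 0.38 and 0.51, where all genes had -0.13, -0.17 and -0.23. Ribosomal protein genes followed the same order in these cells, 18.9, 21.8, 23.1 and 26.2% of UMIs, and median depth the reverse, 17980.5, 13901, 13009.5 and 9859 UMIs; the part of either in the result was not tested. Markers of other classes followed the order of the sum as well: all 10 fibroblast markers had UMIs in every library and summed to 186, 464, 521 and 556 CPM (0.283, 0.752, 0.81 and 1.17% of the level in fibroblast-like cells), all 8 suprabasal markers summed to 4200, 4997, 5906 and 6196 CPM, and the 7 pericyte markers, of which Kcnj8 was at 0 at 12 dpa, to 71.7, 78.0, 79.3 and 94.3 CPM. Their part in the result was not tested either. The class holds 2 clusters, and cluster 10, led by the cell division genes Cenpf and Top2a, had more than cluster 5, led by Tspear and Col17a1: 1.90, 2.34, 2.35 and 2.63% against 1.71, 1.95, 2.15 and 2.36%. Cluster 10 made up 184 of 600, 81 of 295, 145 of 340 and 320 of 769 cells. Within cluster 5 the sum was also higher in each later library, within cluster 10 the 12 and 17 dpa values were close together, and the part of the change of clusters in the class sum was not tested. Among members of at least 50 CPM, Ndufa4l2 was the highest at 17 dpa (log2 0.84) and 28 dpa (0.93), and Ndufs5 at 12 dpa (0.59), with 148, 224, 229 and 255 CPM. The lowest were Ndufa10 at 12 dpa (128, 108, 129.9 and 130.4 CPM), Ndufs1, the large iron-sulfur subunit, at 17 dpa (61.4, 56.3, 52.3 and 57.7 CPM) and Ndufs4 at 28 dpa (127, 145, 122 and 113 CPM). These 3 have the widest genomic spans of the tested complex I members, 34.9, 33.2 and 100.5 kb.

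Of the 12 classes with at least 50 cells in every library, vascular endothelial-like cells had the smallest ratio at 17 dpa. The nuclear sum was 1.12, 1.56, 1.23 and 1.49%, log2 ratios of 0.47, 0.13 and 0.41. The 10 fibroblast markers, all with UMIs in every library, were ordered as the sum in these cells by CPM, 228.1, 1040, 719 and 811. They were 0.347, 1.69, 1.12 and 1.70% of the level in fibroblast-like cells, an order that differs from the sum at 28 dpa. Their part in the result was not tested. Of 73 tested members 70, 53 and 66 were higher and 19, 0 and 9 were past 1.5-fold; of all genes, 34, 38.5 and 38.1% were higher and 2.62, 1.61 and 4.58% were past that fold upwards. Ndufs6 led at 12 dpa (67.9, 119.5, 90.4 and 110.2 CPM), Ndufs8 at 17 dpa (68.8, 91.7, 97.5 and 92.9 CPM) and Ndufb9 at 28 dpa (129.9, 208, 183 and 235 CPM). The lowest were Uqcrfs1, the Rieske iron-sulfur protein of complex III, at 12 dpa (60.7, 57.6, 50.6 and 64.6 CPM), Ndufs3 at 17 dpa (51.8, 64.4, 40.1 and 65.2 CPM) and Atp5mpl at 28 dpa (123, 149.8, 104 and 103 CPM). In the mural classes the log2 ratios of the sum were 0.47, 0.24 and 0.45 for pericyte-like and 0.44, 0.33 and 0.49 for smooth muscle-like cells.

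Of the members, 3 lie on the X chromosome, as Xist does. Ndufa1, Ndufb11 and Cox7b were above the median member in 6, 2 and 7 of 12 classes at 12 dpa, the library that differs from unamputated in these transcripts. At 17 dpa they were above it in 12, 12 and 10 of 12 classes and at 28 dpa in 9, 12 and 5. In fibroblast-like cells Ndufa1, an accessory subunit of complex I, had log2 ratios of 0.69, 0.55 and 0.96, Ndufb11 0.63, 0.50 and 0.78, and Cox7b 0.75, 0.42 and 0.67. In that class the 12 dpa library had the highest ratio of the 3 times for Cox7b and not for Ndufa1 or Ndufb11.

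Among the mitochondrially encoded genes, which the members were set beside, 12, 13 and 10 of 13 were lower than unamputated in fibroblast-like cells at 12, 17 and 28 dpa, with median log2 ratios of -0.28, -0.90 and -0.26. mt-Co1, the catalytic subunit of complex IV, gave 4313, 3298, 1970.2 and 3652 CPM. The counts of lower genes were 8, 12 and 12 of 13 in basal keratinocyte-like and 9, 13 and 9 in pericyte-like cells. They were 12, 13 and 12 in macrophage-like and 12, 13 and 9 in vascular endothelial-like cells. Cells above 10% mitochondrial UMIs were left out, which caps these values. The ratio of mitochondrial to nuclear UMIs in the unamputated library was 3.05 in macrophage-like, 3.41 in pericyte-like, 3.45 in basal keratinocyte-like and 3.88 in vascular endothelial-like cells, and each of these classes was lower in the other 3 libraries: 1.36 to 1.64, 2.08 to 2.37, 2.11 to 2.86 and 2.45 to 2.70. The ratio of neutrophil-like cells was 0.706 unamputated and 0.442 at 17 dpa.

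Other genes of the pathway in fibroblast-like cells are given by list, with no test against the members. Of 44 assembly factors, which build the complexes without being part of them, 17 could be tested at 12 dpa and 7 were past 1.5-fold upwards (median log2 0.55), beside 9.21% of all genes tested. At 28 dpa 18 could be tested and 7 were past it (0.49), beside 9.43% of all genes, led by Uqcc2, a complex III factor, at 179.8, 371, 251 and 418 CPM. Uqcc2 had a log2 ratio of 1.21 at 28 dpa, where the highest member, Ndufb4, had 1.22. The lowest assembly factor was Ttc19, which acts on complex III, at 63.6, 63.0, 57.1 and 45.2 CPM (log2 -0.49, -0.62 to -0.36, at 28 dpa). Of 6 genes in a list that joins complex II, cytochrome c and cytochrome c1, 2 were past 1.5-fold at 12 and 28 dpa (medians 0.41 and 0.42). Its ends at 28 dpa were Cyc1, the complex III subunit outside the symbol rule, with a log2 ratio of 0.67, and Sdha, the flavoprotein of complex II, with 0.07. The 16 genes of the tricarboxylic acid cycle had medians of 0.07, 0.08 and 0.24, and Fh1, fumarase, was the only one past 1.5-fold upwards at 28 dpa (log2 0.65). The lowest was Suclg2, a subunit of succinyl-CoA ligase, at 52.6, 33.9, 41.1 and 34.8 CPM (log2 -0.58, -0.74 to -0.45, at 28 dpa). Of 10 regulators of mitochondrial biogenesis only 3 or 4 could be tested, with medians of -0.27, 0.00 and -0.19; at 28 dpa Nrf1 itself was the lowest at -0.44 and Tfb2m, a mitochondrial transcription factor, the highest at 0.19 (-0.01 to 0.41). Glycolysis genes had medians of 0.30, 0.08 and 0.35 over 13 tested of 16 gene IDs (15 symbols, Aldoa having 2 IDs), with Pkm at 0.74 and the glucose transporter Slc2a1 at 111, 7.02, 156 and 59.7 CPM. Of 10 hypoxia response genes, 4 could be tested at 12 dpa and 3 of these were past 1.5-fold downwards (median -0.62), beside 22.5% of all genes tested, and at 28 dpa Vegfa had a log2 ratio of -0.64 and Bnip3 0.52.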

How the data were processed

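The authors deposited UMI counts per gene and cell barcode for 4 libraries, made with Cell Ranger 7.1.0 on mm10 per the submitters' processing notes; whether intron reads were counted is not given in the sources used here. The deposited counts were read as they stand. Barcodes passed with 500 or more genes, 1000 or more UMIs and a mitochondrial share of 10% or less, and doublets were removed by Scrublet score at 0.8% per 1000 barcodes (12.8, 7.05, 8.41 and 12.2% of barcodes; its own threshold would take 2.03, 2.41, 2.72 and 4.24%). Scanpy 1.11.5 clustered the cells on 2000 variable genes, 30 components, 15 neighbours and Leiden resolution 1, leaving out members, mitochondrial, ribosomal, haemoglobin, sex and marker genes. A cluster was named when at least 3 markers of a class were in 25% of its cells and its 10 leading genes did not go against the name. UMIs were summed per class and library and divided by the class total. Log2 ratios used a pseudocount of 1 CPM, genes averaging 20 CPM or more over the pair were counted against a fold of 1.5, and named members had at least 50 CPM. With 1 library per group no p-value was computed. Named members were the isoform families, the 2 widest by class in each complex, the highest and lowest ratios in 4 classes, the X-linked members and the ends of each other list. The code was tested on simulated data. Gene coordinates come from GENCODE M21, which held all 81 members by ID. The members, lists and tests were chosen with earlier results of these data known.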

Additional observations from a re-analysis of the deposited data

How the results depend on the processing

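The log2 ratio of the nuclear sum in fibroblast-like cells stayed above 0 under 12 alternatives at 12 dpa (0.36 to 0.91), 13 at 17 dpa (0.24 to 0.48) and 13 at 28 dpa (0.42 to 0.78). At 12 dpa, against 0.74, it was 0.59 with a looser cell filter, 0.67 with a stricter one, 0.63 with no mitochondrial limit, 0.62 with no doublets removed, 0.72 at resolution 2, 0.65 with each cell named alone, 0.79 with mitochondrial, ribosomal and haemoglobin UMIs out of the total, 0.71 as a mean of single cells, 0.91 in cells of 5000 to 15000 UMIs, 0.36 in cluster 12 and 0.66 in cluster 14. At 17 dpa, against 0.33, the looser filter gave 0.36, no mitochondrial limit 0.35, no doublets removed 0.29, cells named alone 0.30, single-cell means 0.29, the UMI window 0.48 and clusters 12, 14 and 15 gave 0.24, 0.41 and 0.26. At 28 dpa, against 0.69, the stricter filter gave 0.71, no mitochondrial limit 0.67, no doublets removed 0.64, cells named alone 0.60, the smaller total 0.71, single-cell means 0.61, the UMI window 0.78 and clusters 12, 14 and 15 gave 0.42, 0.62 and 0.44. The window and the single clusters were chosen after seeing the data.

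The count of members past 1.5-fold is given with the share of all genes past the same fold upwards under the same setting. At 12 dpa (55) it was 10 at a fold of 2 (1.31%) and 9 in cluster 12 (6.19%). It was 41 with no doublets removed (6.42%), 42 with the looser filter (6.49%) and 44 with cells named alone (6.61%). With no mitochondrial limit it was 45 (6.92%), and in cluster 14 it was 44 (9.22%). It was higher with the smaller total (59, 11.1%), in the UMI window (61, 15.4%) and at the smaller fold tried (67, 20.2%). At 17 dpa (1) it was 5 with the looser filter (2.34%), 2 with the stricter (1.78%), 2 with no mitochondrial limit (2.12%), 41 at the smaller fold tried (9.49%), 0 at a fold of 2 (0.283%), 18 in the UMI window (4.88%), 2 in cluster 12 (1.97%) and 14 in cluster 14 (3.73%). At 28 dpa (52) it was 4 at a fold of 2 (1.87%), 16 in cluster 12 (6.04%) and 18 in cluster 15 (6.13%). It was 43 with cells named alone (9.93%), 43 with single-cell means (7.33%) and 45 with no doublets removed (8.13%). In cluster 14 it was 42 (9.41%). It was higher in the UMI window (59, 12.8%) and at the smaller fold tried (66, 20.3%). The cause was not tested in any of these cases.

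Mean nuclear sums were 2.47% with the stricter filter, 1.83% with no mitochondrial limit and 3.02% of the smaller total in basal keratinocyte-like cells, and 2.19 and 1.61% of the smaller total in macrophage-like and vascular endothelial-like cells. Leaving out each library in turn gave 2.04 to 2.28% for basal, 1.42 to 1.67% for fibroblast-like, 1.80 to 2.03% for macrophage-like and 1.28 to 1.43% for vascular endothelial-like cells, a mitochondrial to nuclear ratio of 1.54 to 2.12 in fibroblast-like cells, and mural shares of 20.7 to 25.1% for Cox4i2 and 90.6 to 92.9% for Ndufa4l2. Signs changed for Atp5c1 at 12 dpa in cluster 12 (-0.13), Cox7a2l at 12 dpa with the looser filter (-0.0019), Ndufa3 at 28 dpa in cluster 15 (-0.23), Uqcrc1 at 17 dpa in cluster 14 (0.027) and Uqcrc2 at 28 dpa in cluster 12 (-0.10). No paired analysis was possible because each group held 1 library. Depth was lower in each later library, so small members at 28 dpa rest on fewer UMIs per cell.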
